A study of Mus musculus with 12 samples.

Results

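Pon3, Tex14, Mylk4, Npl and Scmh1 are 5 of the 47069 genes in an RNA sequencing table of cultured mouse B cell precursors, immature lymphocytes on the way to B cells that still lack a complete antibody. They were chosen by their measured FPKM in these libraries, for a level that stood higher over its control under a drug against the kinase GSK3 than under genetic stabilisation of β-catenin, one of the proteins that GSK3 controls. The choice used the same values that are described here, so the levels and differences of these 5 genes are given as descriptions, with their spread and with no test.

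The table holds 12 libraries in 4 groups of 3, all made from B cell precursors grown out of hematopoietic stem cell cultures in Iscove's medium with IL7. The sorted controls (WT, numbers 242, 249 and 251) and the β-catenin group (KO, numbers 244, 255 and 262) were sorted on the B lineage surface protein B220 and taken straight to RNA isolation. The β-catenin group came from Mb1-Cre x Catnb lox(ex3) mice, labelled bCat-lox(Ex3), in which a recombinase expressed in the B lineage removes exon 3 of the β-catenin gene Ctnnb1. The labels give the controls as "control" and do not say whether they carry Mb1-Cre. The untreated group (UT) and the inhibitor group (GSK3) were unsorted wildtype precursors with the numbers 242, 249 and 251 and an overnight incubation, the first in medium alone and the second in 40 nM LY2090314, which inhibits GSK3. Drug and genotype are thus each set against their own control, but the drug groups differ from the genotype groups in sorting and in the overnight incubation too, and these cannot be told apart. Separate animals are not stated for the libraries of a group, so the spread and the p-values given below are those between these libraries. Levels are FPKM, a fragment number scaled to gene length and library depth, which is a level per length and allows genes to be set side by side.

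GSK3 is a kinase with the forms GSK3α and GSK3β that is active in resting cells and phosphorylates many proteins. One of them is β-catenin, which is destroyed after phosphorylation at sites encoded in exon 3 and otherwise enters the nucleus and works with TCF/LEF factors on WNT target genes. A kinase inhibitor can act through any substrate of GSK3, whereas the deletion of exon 3 acts on β-catenin. The 5 genes belong to different processes. Pon3 encodes paraoxonase 3, a lactonase known from liver and blood lipoproteins that also limits oxidative damage inside cells. Tex14 encodes an inactive kinase best known from testis, where it binds CEP55 and keeps dividing germ cells joined by intercellular bridges. Mylk4 belongs to the myosin light chain kinases and is best known from heart and skeletal muscle. Npl encodes N-acetylneuraminate lyase, which splits the sugar sialic acid in the cytosol. Scmh1 encodes a subunit of Polycomb repressive complex 1 (PRC1), a chromatin complex that keeps developmental genes silent.

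Positions are those of GENCODE M21 on GRCm38. Pon3 (ENSMUSG00000029759) lies at chr6:5220852-5256286 on the minus strand, Tex14 (ENSMUSG00000010342) at chr11:87405065-87555823 on the plus strand and Mylk4 (ENSMUSG00000044951) at chr13:32700834-32783954 on the minus strand. Npl (ENSMUSG00000042684) lies at chr1:153503015-153550045 on the minus strand and Scmh1 (ENSMUSG00000000085) at chr4:120405281-120530186 on the plus strand. All 5 are protein coding, and none shares a chromosome with another. Tex14 spans 12 small RNA genes and pseudogenes and Mylk4 spans 1, with at most 3.83 FPKM in any library (Rnu1a1, a small nuclear RNA inside Tex14).

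The stretches shown next lie before the start of the genes with the lowest untreated levels. The first is the 250 bases before the start of Mylk4 (chr13:32783965-32784214, minus strand), shown because it holds CTTTGAA, a form of the letters that TCF/LEF factors bind, 2 times (capitals), at 115 to 121 and 135 to 141 bases before the start. The second is the 110 bases between the starts of Rad51c and Tex14 (chr11:87404955-87405064, plus strand, running towards Tex14), which point away from each other. It is shown because both genes start from it while their levels differ, as given further below. Both are RefSeq sequence of GRCm38.p6.
Mylk4: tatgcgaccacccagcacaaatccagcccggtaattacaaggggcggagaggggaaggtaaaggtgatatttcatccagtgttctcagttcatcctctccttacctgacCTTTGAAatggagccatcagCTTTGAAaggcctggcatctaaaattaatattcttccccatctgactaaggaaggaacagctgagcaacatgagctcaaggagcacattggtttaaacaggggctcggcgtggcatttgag
Tex14: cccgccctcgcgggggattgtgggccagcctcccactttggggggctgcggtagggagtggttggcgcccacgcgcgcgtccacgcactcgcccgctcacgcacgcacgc
All 5 genes matched an entry among these RefSeq promoters, and the 250 bases before each start were searched on both strands for CTTTGAT and CTTTGAA (TCF/LEF), CACGTG (the E-box) and TGACNNNGC (the antioxidant response element). The first pair differ in the last base, and matches to different motifs did not overlap in the windows of the 5 genes. Of 32851 such windows in the genome, 4.46% hold CTTTGAA and 0.161% hold it 2 or more times, 3.21% hold CTTTGAT, 6.02% hold CACGTG and 10.2% hold TGACNNNGC. Besides the matches before Mylk4, the search found CACGTG before Npl, at 46 to 51 bases, and these letters were not in the windows of Pon3, Tex14 and Scmh1. A match describes the letters and shows no binding.

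Pon3 was present in all libraries and far higher in the inhibitor group than anywhere else. The inhibitor libraries 242, 249 and 251 held 87.5, 85.3 and 98.9 FPKM, against 8.48, 12.3 and 10.8 FPKM in the untreated libraries of the same numbers. The sorted controls held 11.7, 9.91 and 10.4 FPKM, and the β-catenin libraries 244, 255 and 262 held 1.86, 5.52 and 1.84 FPKM. The lowest inhibitor library was thus 6.95 times the highest of all other libraries, the untreated and sorted control groups overlapped, and every β-catenin library lay below every control. The means were 90.5 ± 7.30 FPKM with inhibitor and 10.5 ± 1.91 FPKM without (SD, n = 3 each), a ratio of 8.62. For the β-catenin group the mean was 3.07 ± 2.12 FPKM against 10.7 ± 0.938 FPKM in the sorted controls (SD, n = 3 each), a ratio of 0.287. On the scale of log2(FPKM + 1) these differences were 3.0 (SE 0.15) and -1.64 (SE 0.34), so for Pon3 drug and genotype pointed in opposite directions.

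Tex14 had few fragments without the drug and a level near that of Pon3 with it. The untreated libraries 242, 249 and 251 held 0.427, 0.287 and 0.349 FPKM, which stand for 25, 17 and 18 fragments, and the inhibitor libraries held 77.6, 43.2 and 58.0 FPKM. The sorted controls held 1.25, 0.816 and 0.543 FPKM, and the β-catenin libraries 244, 255 and 262 held 0.445, 8.34 and 2.16 FPKM. The β-catenin libraries spread over a range of 18.7 times and overlapped the sorted controls, while the sorted controls all lay above the untreated group and the inhibitor libraries all lay above everything else. The means were 59.6 ± 17.3 FPKM with inhibitor and 0.354 ± 0.0697 FPKM without (SD, n = 3 each), a ratio of 168. The log2(FPKM + 1) difference was 5.45 (SE 0.23) for the drug and 0.92 (SE 0.66) for the genotype. Adding 1 FPKM shrinks the differences of such low genes. With 0.1 FPKM added instead, the drug difference of Tex14 was 7.01, and in a model of the fragment numbers (voom) it was 7.38.

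Mylk4 had the lowest levels of the 5 without the drug. The untreated libraries 242, 249 and 251 held 0.0439, 0.165 and 0.00997 FPKM, or 5, 19 and 1 fragments, and the sorted controls held 0.135, 0.0536 and 0.0116 FPKM, or 18, 6 and 1 fragments. With the inhibitor the same numbers held 52.9, 47.4 and 77.9 FPKM, or 6841, 4846 and 8070 fragments. The β-catenin libraries 244, 255 and 262 lay between, at 0.640, 4.61 and 4.26 FPKM. All 3 β-catenin libraries were above all 3 sorted controls, and the lowest inhibitor library was 10.3 times the highest β-catenin library, so the levels formed 3 steps with only the control groups overlapping. The mean with inhibitor was 59.4 ± 16.3 FPKM and without it 0.0730 ± 0.0816 FPKM (SD, n = 3 each), a ratio of 813 that rests on the 25 untreated fragments. The β-catenin mean was 3.17 ± 2.20 FPKM (SD, n = 3), 47.6 times that of the sorted controls. The log2(FPKM + 1) difference was 5.78 (SE 0.22) for the drug, 8.49 with 0.1 FPKM added and 10.19 in the model of fragment numbers. For the genotype it was 1.77 as a difference of means, since Mylk4 reached 1 FPKM in 2 of the 6 sorted libraries and was not in that fit.

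Npl stood at a few FPKM in every library without the drug. The inhibitor libraries 242, 249 and 251 held 42.5, 39.0 and 38.4 FPKM, and the untreated libraries held 1.26, 5.63 and 1.67 FPKM. The sorted controls held 2.04, 1.56 and 2.42 FPKM, and the β-catenin libraries 244, 255 and 262 held 1.62, 1.53 and 1.56 FPKM. The untreated, sorted control and β-catenin groups all overlapped, the β-catenin libraries lay closest together of all groups, and untreated library 249 stood apart from the other two. The means were 40.0 ± 2.20 FPKM with inhibitor and 2.85 ± 2.41 FPKM without (SD, n = 3 each), a ratio of 14.0. The log2(FPKM + 1) difference was 3.58 (SE 0.40) for the drug, 4.07 without both unsorted libraries numbered 249, and -0.22 (SE 0.16) for the genotype.

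Scmh1 was well expressed in every library and showed the smallest drug difference of the 5. The inhibitor libraries 242, 249 and 251 held 85.6, 65.3 and 84.2 FPKM, and the untreated libraries held 26.6, 19.7 and 26.9 FPKM. The sorted controls held 37.0, 43.6 and 39.2 FPKM, and the β-catenin libraries 244, 255 and 262 held 26.1, 70.1 and 50.2 FPKM. The inhibitor libraries lay above all untreated and sorted control libraries but not above the β-catenin library 255, so here the inhibitor and β-catenin groups overlapped. The β-catenin group overlapped the control groups too, and the untreated group lay wholly below the sorted controls. The means were 78.4 ± 11.3 FPKM with inhibitor and 24.4 ± 4.04 FPKM without (SD, n = 3 each), a ratio of 3.21, and the untreated mean was 0.611 of the sorted control mean. The log2(FPKM + 1) difference was 1.65 (SE 0.17) for the drug. For the genotype it was 0.18 (SE 0.34), and -0.13 without library 255, so that its direction depended on this library.

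**Figure D1:**
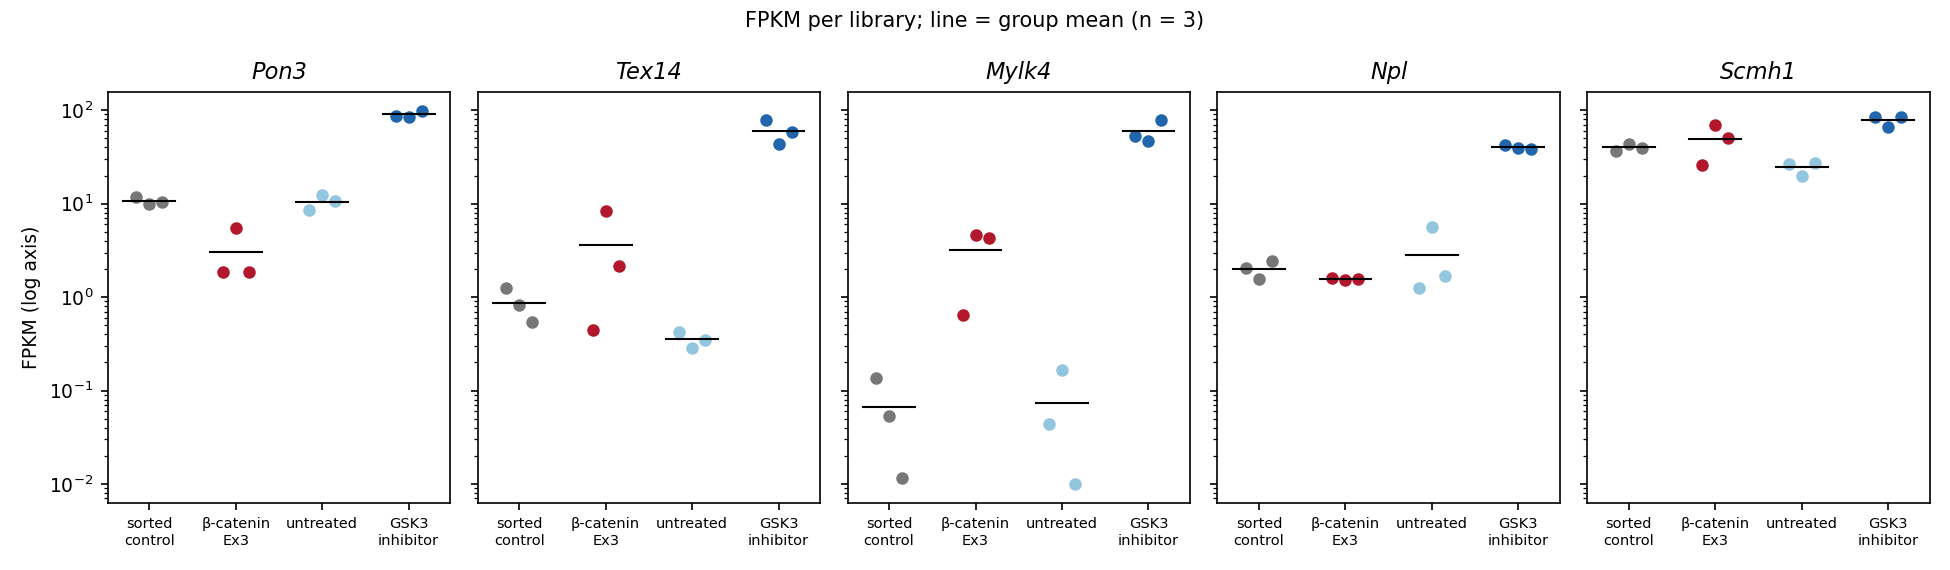
Level of each gene in every library (FPKM, log axis) by group, with points for libraries and a line for the group mean (n = 3). The inhibitor points of Pon3, Tex14, Mylk4 and Npl all lie above every other library, while the lowest inhibitor point of Scmh1 is 0.933 of its highest β-catenin point.

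All 5 genes had every inhibitor library above every untreated library, as did 17.3% of the 12685 genes tested in that comparison, and for 4 of the 5 the inhibitor libraries also lay above the other 9 libraries. The share of all genes with this second order was not counted. Since the choice used the contrast of inhibitor and untreated libraries, nothing is read from those counts. In the genotype comparison only Mylk4 had all β-catenin libraries above all sorted controls, an order found in 26.5% of the 12813 genes tested there. Only Pon3 had all of them below, as had 29.4%. At 1 FPKM or more in every untreated library were Pon3, Npl and Scmh1. Tex14 and Mylk4 reached the filter of the inhibitor fit, 1 FPKM in at least 3 libraries, through the inhibitor libraries alone. All 5 were at 5 FPKM or more in every inhibitor library. Their means ran from 40.0 to 90.5 FPKM there and from 0.0730 to 24.4 FPKM in the untreated group.

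The difference of both effects, drug minus genotype on the log2(FPKM + 1) scale, shows how the choice came about. It was 4.64 (SE 0.39) for Pon3, 4.53 (SE 0.75) for Tex14, 4.01 (SE 0.57) for Mylk4, 3.8 (SE 0.46) for Npl and 1.47 (SE 0.41) for Scmh1. A difference above 0 was found in 49.7% of the 13861 genes tested. Among 11459 protein coding genes the first 4 ranked 1, 2, 4 and 5, and Scmh1 ranked 275. The gene at rank 3 was Fcrla, a B cell Fc receptor-like protein, which reached its place in another way. Its level was lower with the drug (26.9 against 52.2 FPKM) and lower still with the genotype (1.94 against 116 FPKM). The next 4 were Scn2b at 3.71, a sodium channel subunit with 25.1 FPKM against 1.12 FPKM, Alpl at 3.69, the tissue alkaline phosphatase, Mpp3 at 3.67 and Tmem255a at 3.63. For Alpl the drug means were close, 94.7 against 80.6 FPKM, while the β-catenin mean was 21.7 against 171 FPKM.

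**Figure D2:**
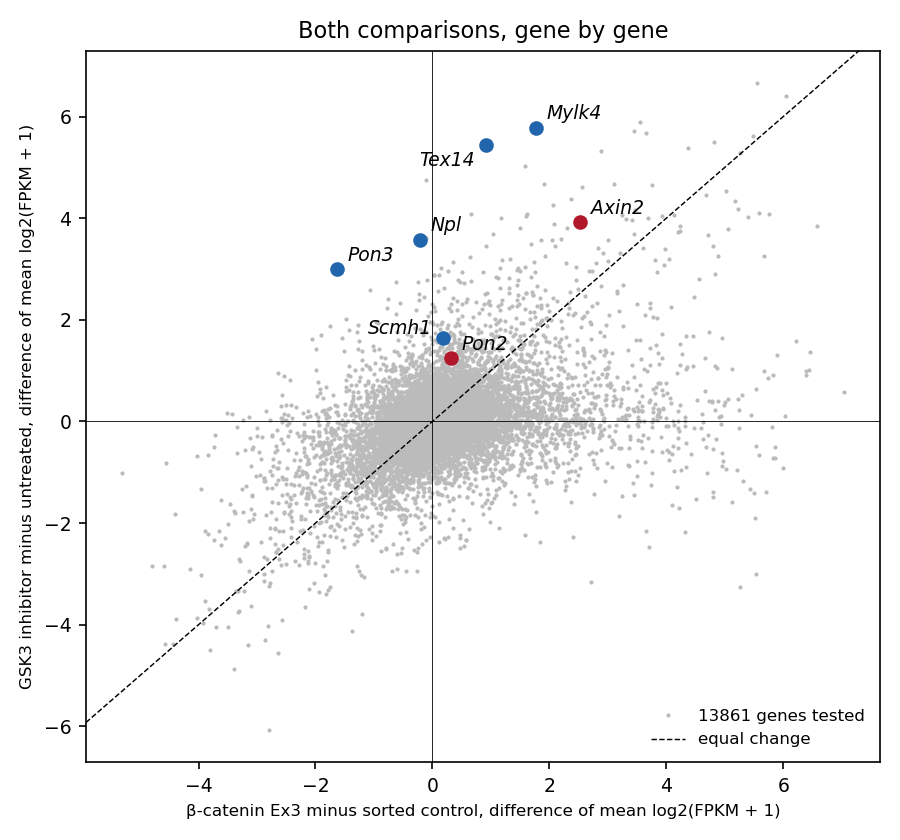
Each grey point is 1 of 13861 genes, with the difference of group means for the genotype on the x axis and for the drug on the y axis, both in log2(FPKM + 1). Blue points are the 5 genes, which lie above the dashed line of equal change, and red points are Axin2 (2.53 and 3.92) and Pon2 (0.32 and 1.24).

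The untreated and inhibitor libraries with the same number deviated together across genes, although numbers 242 and 251 did so with each other too, and the drug difference can be taken within each number. Pon3 was 10.3, 6.95 and 9.18 times higher with the inhibitor in cultures 242, 249 and 251. Tex14 was 182, 150 and 166 times higher, and Scmh1 3.22, 3.31 and 3.13 times. Scmh1, the gene with the smallest ratio, was thus the most even across cultures. Npl was 33.6, 6.94 and 23.0 times higher, with the low ratio of culture 249 coming from its untreated level of 5.63 FPKM. Mylk4 was 1205 times higher in culture 242 and 287 times in culture 249. In culture 251 its 8070 fragments stand against 1, which gives no usable ratio.

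**Figure D3:**
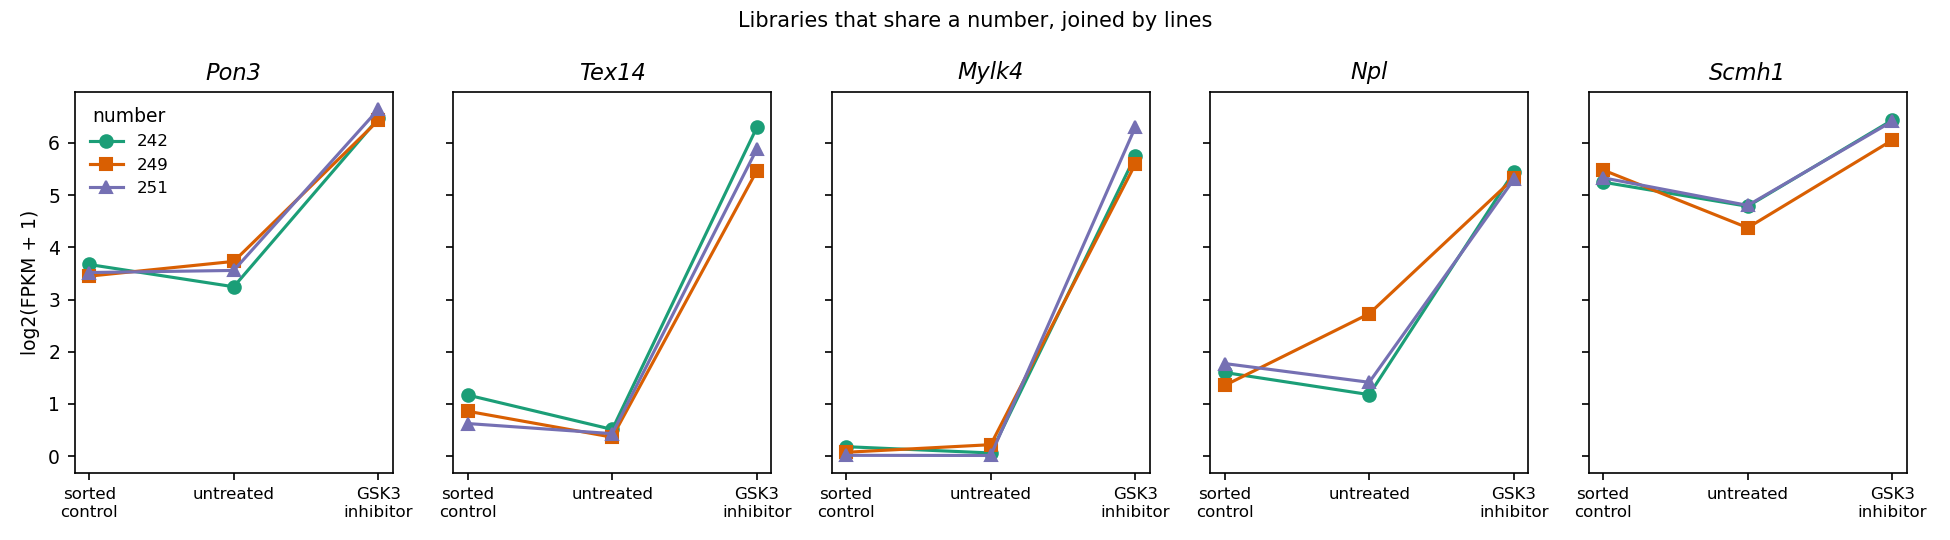
Level of each gene, log2(FPKM + 1), in the sorted control, untreated and inhibitor libraries, with lines joining libraries of the same number. All 15 lines run upward from untreated to inhibitor, and the line of Npl that starts highest in the untreated group is number 249, at 5.63 FPKM.

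Across all 12 libraries the 5 genes followed each other to different degrees. Pearson's r of log2(FPKM + 1) ran from 0.581 for Pon3 with Scmh1 to 0.979 for Tex14 with Mylk4. These values describe profiles that all share the high inhibitor group by choice. Among other protein coding genes, the profiles most like Pon3 were those of Adk (r = 0.964), the adenosine kinase, Msra (0.956), which repairs oxidised methionine, and 2510009E07Rik (0.952). Rdh10, a retinol dehydrogenase, Eps15, an endocytic adaptor, and Drg1, a GTP-binding protein, were most like Tex14, with r of 0.994, 0.990 and 0.988. Rdh10 stood at 3.37 ± 0.139 FPKM untreated and 20.7 ± 2.70 FPKM with the inhibitor, and at 3.91 ± 0.868 and 6.23 ± 2.71 FPKM in the sorted control and β-catenin groups (SD, n = 3 each).

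Mylk4 was followed most closely by E330034G19Rik (0.997), Cyp11b2 (0.992), the aldosterone synthase known from the adrenal gland, and Proser2 (0.988). Cyp11b2 was listed at 0 in all untreated and sorted control libraries and had means of 32.0 ± 6.26 FPKM with the inhibitor and 2.07 FPKM in the β-catenin group. Closest to Npl were Lamp2 (0.977), a main protein of the lysosome membrane, Grb14 (0.973), an adaptor of the insulin receptor, and Cyp20a1 (0.972). Lamp2 stood at 48.0 FPKM untreated and 236 ± 20.6 FPKM with the inhibitor. Scmh1 was most like Slamf6 (0.974), a lymphocyte surface receptor, Ralgps2 (0.963) and Hs6st1 (0.957), an enzyme of heparan sulphate sulphation. Slamf6 shared with Scmh1 a lower untreated than sorted control mean, 35.1 against 60.9 FPKM, and a high inhibitor mean of 188 ± 34.9 FPKM. Among the genes closest to the mean profile of the 5 were Eps15 (0.987), Scn2b (0.985), Grb14 (0.981), Rdh10 (0.977), Drg1 (0.974), Tpm4 (0.973), Ap3b2 (0.972), Man2a1 (0.971) and Sipa1l2 (0.971).

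The close relatives of these genes did not share one pattern. Pon2, the paraoxonase next to Pon3, held 21.1, 28.0 and 22.1 FPKM in the untreated libraries 242, 249 and 251 and 54.6, 51.2 and 66.9 FPKM with the inhibitor. The sorted controls held 18.7, 23.7 and 18.5 FPKM and the β-catenin libraries 28.4, 24.2 and 24.0 FPKM. Pon2 rose with the inhibitor in 3 of 3 cultures, by 1.24 on the log2(FPKM + 1) scale (SE 0.15, limma adjusted p = 0.00308). For the genotype its difference was 0.32 (SE 0.13, limma adjusted p = 0.107), where Pon3 had -1.64. The difference of both effects of Pon2 was 0.92 (limma adjusted p = 0.0247). This call was lost without sorted control 249 or 251, β-catenin library 262, untreated library 251 or inhibitor library 242 or 251, with adjusted p of 0.0505 to 0.0658. Pon1, the third paraoxonase, was listed at 0 in 11 libraries and at 0.0192 FPKM in β-catenin library 244. The other myosin light chain kinases were low with the inhibitor. Mylk reached 0.385, 0.386 and 0.0572 FPKM with the inhibitor against 0, 0.494 and 0.0689 FPKM without, and its highest levels were 7.80 and 3.24 FPKM in β-catenin libraries 255 and 262. Mylk2 and Mylk3 stayed at or under 0.249 FPKM in every library, and none of these 3 kinases entered the fits.

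The nearest protein coding genes that were tested on either side of each of the 5 made 10 neighbours, of which 3 rose and 1 fell with the inhibitor, where 8.47% of all genes tested rose and 9.6% fell. Those that rose were Pon2, 7.86 kb from Pon3, Wrnip1, 18.1 kb from Mylk4, and Sept4, 13.1 kb from Tex14. Wrnip1, a DNA replication-linked ATPase, went from 36.7 ± 4.33 to 155 ± 38.8 FPKM (SD, n = 3 each), a log2 difference of 2.02 (limma adjusted p = 0.00144). Sept4, a septin, went from 0.768 ± 0.245 to 5.58 ± 2.55 FPKM (1.82, limma adjusted p = 0.0160). The call of Sept4 was lost without untreated library 242 or 251 or inhibitor library 242 or 251, with adjusted p of 0.0524 to 0.0664. Hivep3, a zinc finger protein 267 kb from Scmh1, fell from 44.0 ± 4.4 to 3.63 ± 1.78 FPKM (-3.34, limma adjusted p = 0.000674).

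Other close neighbours gave no call. Rad51c, the DNA repair gene that starts 110 bases from Tex14, stood at 6.58 ± 0.463 FPKM untreated and 5.83 ± 2.0 FPKM with the inhibitor (SD, n = 3 each), a log2 difference of -0.19 (limma adjusted p = 0.644), while the mean of Tex14 was 168 times higher. Dhx9, an RNA helicase 15.4 kb from Npl, had a difference of -0.13 (limma adjusted p = 0.528). Ctps, the CTP synthase 9.68 kb from Scmh1, had -0.75 (limma adjusted p = 0.0507), which passed the threshold with the culture number as a block (adjusted p = 0.0101). The differences of Sgce and Gmds, the farther neighbours of Pon3 and Mylk4, were 0.23 and 0.25, and neither passed the test. In the genotype comparison 1 of the 10 neighbours rose (18.6% of all genes tested), which was Sept4. In it 5 fell (17.7%), which were Sgce, Rad51c, Dhx9, Hivep3 and Ctps. Sept4 reached the filter there through the β-catenin libraries alone and Sgce through the sorted controls alone, which set their direction. Hivep3 fell there by 3.32 (limma adjusted p = 0.00332). The calls of Sept4, Rad51c and Dhx9 were lost without any single sorted control, and that of Dhx9 also without β-catenin library 262 (adjusted p of 0.0520 to 0.115).

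Counts over the pathway of each gene show whether its partners moved in the same libraries. The 5 lists and a list of WNT feedback genes were put together with earlier results of these data known. Beside the inhibitor share of 8.47% higher and 9.6% lower stand 18.6% and 17.7% for the genotype, and 3.05% and 6.07% for the difference of effects. In either direction the shares were 18.1%, 36.3% and 9.12%. These are shares of the main fits, and calls over all genes moved with the setting too. For the drug 1783 of 12685 rose and 2033 fell with the block, against 1074 and 1218. For the genotype 1932 of 12813 rose and 3291 fell after centring on the median, and 1012 of 12450 and 523 without sorted control 251. A list count under another setting is thus not to be set against the main shares. The median log2 difference of all genes tested was -0.03 for the drug and -0.02 for the genotype.

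Of the antioxidant enzymes related to Pon3, 16 were tested with the inhibitor, of which 3 rose, 1 fell and 12 did not pass (median 0.07). Besides Pon2, Gclc, the catalytic subunit of the enzyme that starts glutathione synthesis, rose from 21.5 ± 1.64 to 41.2 ± 13.5 FPKM (SD, n = 3 each; 0.86, limma adjusted p = 0.0389). Txn1, the cytosolic thioredoxin, rose from 302 ± 22.7 to 453 ± 39.2 FPKM (0.58, limma adjusted p = 0.0131). The call of Gclc was lost without inhibitor library 242 or any single untreated library (adjusted p of 0.0601 to 0.126). That of Txn1 was lost without untreated library 251 or inhibitor library 242 or 251 (0.0507 to 0.0570). The gene that fell was Sod1, the cytosolic superoxide dismutase (-0.46, limma adjusted p = 0.0362), and no gene fell when any single library was left out, by voom, with no filter or after centring on the median. The count of genes that rose was 1 without untreated library 251 or inhibitor library 242, and 6 with the culture number as a block. For the genotype 4 of 14 rose (Srxn1, Gpx4, Gsr and Txnrd1) and 4 fell (Cat, Gpx1, Gclc and Sod1), with a median of -0.16. Without any single sorted control at most 1 rose and 0 fell, without β-catenin library 262 1 rose and 1 fell, and without library 255 5 rose and 5 fell. With all 12 libraries in the fit 2 rose. Srxn1, which restores oxidised peroxiredoxins, rose by 2.30 (limma adjusted p = 0.0193) and Cat, the catalase, fell by 0.95 (limma adjusted p = 0.0224). Both calls were lost in 4 of 6 fits without 1 library, those without each sorted control and without β-catenin library 262 (adjusted p of 0.0569 to 0.0827). In the difference of effects 4 of 16 were called higher (Cat, Gclc, Pon2 and Txn1) and 0 lower (median 0.08). With single libraries left out 1 to 4 were higher and 0 to 1 lower. Gclc (1.38, limma adjusted p = 0.0134) passed in all 12 fits without 1 library, and had -0.52 for the genotype. Cat (0.98, limma adjusted p = 0.0488) was lost in 10 of these fits and Txn1 (0.78, 0.0251) in 7. Both were lost with no filter (0.0968 and 0.0518). The drug difference of Cat was 0.03. 

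Genes of the midbody and the intercellular bridge, the structures in which Tex14 works, gave no call with the inhibitor in the main, unpaired fit. Of 17 tested, 0 rose and 0 fell by limma at an adjusted p under 0.05, 4 had an unadjusted p under 0.05, all higher, and voom called 0. With the culture number as a block 5 rose, namely Cit, Kif14, Tsg101, the midzone protein gene Prc1 and Cep55, whose protein is the partner of TEX14 (log2 difference 0.57, blocked limma adjusted p = 0.0190). Without inhibitor library 249 2 rose, and with all 12 libraries in the fit 3. The median was 0.21. For the genotype 1 of 17 rose and 4 fell, namely Aurkb, Anln, Cep55 and Racgap1 (median -0.28). Pdcd6ip, the one that rose, is an adaptor of membrane scission and went from 97.5 ± 5.6 to 161 ± 22.2 FPKM (0.71, limma adjusted p = 0.00771). Aurkb, a kinase of chromosome segregation and abscission timing, fell from 186 ± 14.7 to 111 ± 17.5 FPKM (-0.74, limma adjusted p = 0.00981), a call lost without sorted control 251 (adjusted p = 0.0513). The count of genes that fell was 0 without sorted control 251, 1 without sorted control 242 or 249 or β-catenin library 262, 2 without library 244 and 9 without library 255. It was 7 after centring on the median, 2 by voom or with all 12 libraries in the fit and 1 with no filter. In the difference of effects 1 of 17 was called higher, the gene Prc1 (0.94, limma adjusted p = 0.0447), and 0 lower (median 0.55). By voom 0 were called, and with single libraries left out 0 to 5 were higher and 0 to 1 lower.

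Of 15 tested genes of myosin light chain phosphorylation, around Mylk4, 3 rose, among them Myl12b and Myl12a, and 1 fell with the inhibitor (median 0.02). Myl12b and Myl12a encode the regulatory light chains that such kinases phosphorylate. Myl12b rose from 181 ± 59.5 to 536 ± 43.0 FPKM (1.61, limma adjusted p = 0.00469) and Myl12a from 182 ± 34.3 to 335 ± 36.1 FPKM (0.89, limma adjusted p = 0.0114), all SD with n = 3. They are near-identical copies, so the split of reads between them is uncertain. The call of Myl12a was lost without untreated library 242 (adjusted p = 0.0517), where 1 gene of the list rose. Ppp1cb, the catalytic subunit of myosin phosphatase, fell by 0.64 (limma adjusted p = 0.00991). For the genotype 8 rose and 1 gene, Ppp1cb, was called lower (median 0.25). Its call there (-0.35, limma adjusted p = 0.0424) was lost in 5 of 6 fits without 1 library, all but that without β-catenin library 255 (adjusted p of 0.0591 to 0.136), and with no filter (0.0724) or by voom (0.06). Myl12b rose there by 1.5 (limma adjusted p = 0.00353) and Myl12a by 0.99 (limma adjusted p = 0.00215). The count of 8 was 3 without sorted control 251, 4 without sorted control 242 or β-catenin library 262, 5 without sorted control 249 and 4 after centring on the median. The count that fell was 4 without β-catenin library 255. In the difference of effects 0 of 15 were called higher and 0 lower (median -0.14), and 0 to 1 in each direction with single libraries left out.

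The sialic acid pathway of Npl gave 3 genes that rose with the inhibitor (Cmah, Gne and the lysosomal exporter gene Slc17a5), 1 that fell and 18 that did not pass among 22 tested (median -0.02). Cmah, which converts one form of sialic acid to another, rose from 5.16 ± 0.967 to 33.0 ± 6.54 FPKM (SD, n = 3 each; 2.46, limma adjusted p = 0.000722). Gne, the first enzyme of sialic acid synthesis, rose from 49.3 ± 9.50 to 92.4 ± 19.7 FPKM (0.89, limma adjusted p = 0.0258). St6gal1, which adds sialic acid to glycoproteins of B cells, fell from 54.2 ± 12.1 to 24.5 ± 6.20 FPKM (-1.12, limma adjusted p = 0.0197). The call of Gne was lost without untreated library 242 or 249 or inhibitor library 242 or 251 (adjusted p of 0.0691 to 0.0968), and that of St6gal1 without untreated library 242 or 251 or inhibitor library 242 (0.0715 to 0.0745) and with all 12 libraries in the fit (0.139). Only 1 gene rose without any one library of the first set and 0 fell without any one of the second. Without inhibitor library 249 3 fell, and with the culture number as a block 5 rose and 4 fell. For the genotype 8 of 21 rose and 2 fell, St6gal1 and St6galnac4 (median 0.35). St3gal5, the ganglioside GM3 synthase, rose there by 1.12 (limma adjusted p = 0.0105), a call lost with all 12 libraries in the fit (adjusted p = 0.203). St6gal1 fell by 2.88 (limma adjusted p = 0.0168), a call lost without any single sorted control (0.0576 to 0.0723). The count that rose was 3 without sorted control 242 or 251 or β-catenin library 262, 4 without sorted control 249 and 5 with all 12 libraries in the fit. The count that fell was 0 or 1 without any single sorted control or library 262, and 1 with all 12 libraries. Cmah was the 1 gene of the list whose difference of effects passed (2.60, limma adjusted p = 0.0363), and it was lost in 9 of 12 fits without 1 library (adjusted p of 0.0577 to 0.0858), all but those without β-catenin library 244 or 255 or inhibitor library 249.

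In the list of PRC1, the complex of Scmh1, and genes linked to it, 24 were tested with the inhibitor (median 0.00). Of these 2 rose, 4 fell (among them Kdm2b, Cbx7 and Pcgf2) and 18 did not pass. Scml4, a protein of the same SCM family as Scmh1, rose from 9.05 ± 0.965 to 48.9 ± 8.30 FPKM (SD, n = 3 each; 2.30, limma adjusted p = 0.000479). Rybp, a subunit of variant PRC1 complexes, rose from 10.3 ± 1.82 to 30.2 ± 3.24 FPKM (1.47, limma adjusted p = 0.00171). The count that fell was 2 without untreated library 249, 1 without inhibitor library 249 or 251 and 0 without untreated library 242 or 251 or inhibitor library 242. It was 2 by voom, after centring on the median or with all 12 libraries in the fit, and 1 with no filter. For the genotype 4 of 24 rose (Scml4, Phc3, Pcgf1 and Pcgf5) and 3 fell (Gmnn, Bcor and Cbx8), with a median of 0.17. Gmnn is listed with the complex but does not encode a subunit of it. Scml4 rose there by 0.89 (limma adjusted p = 0.0145, lost without sorted control 242 at 0.0604 or 251 at 0.0664). Phc3, a polyhomeotic subunit, rose by 0.80 (limma adjusted p = 0.00733). The count of 4 that rose was 1 without sorted control 242 or 251, 2 without sorted control 249 or β-catenin library 262, and 7 without library 255 or with all 12 libraries in the fit. The count of 3 that fell was 2 without β-catenin library 244 and 1 without any other single library or with no filter. In the difference of effects 1 of 24 was called higher and 2 lower (median -0.04). Scml4 was higher with the drug than with the genotype by 1.42 (limma adjusted p = 0.00971), which passed in all 12 fits without 1 library. Those called lower were Pcgf2 (-1.40, limma adjusted p = 0.0388) and Kdm2b (-0.93, limma adjusted p = 0.0383). The count called lower was 0 by voom, after centring on the median or with quantile normalization. It was 0 to 4 with single libraries left out.

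**Figure D4:**
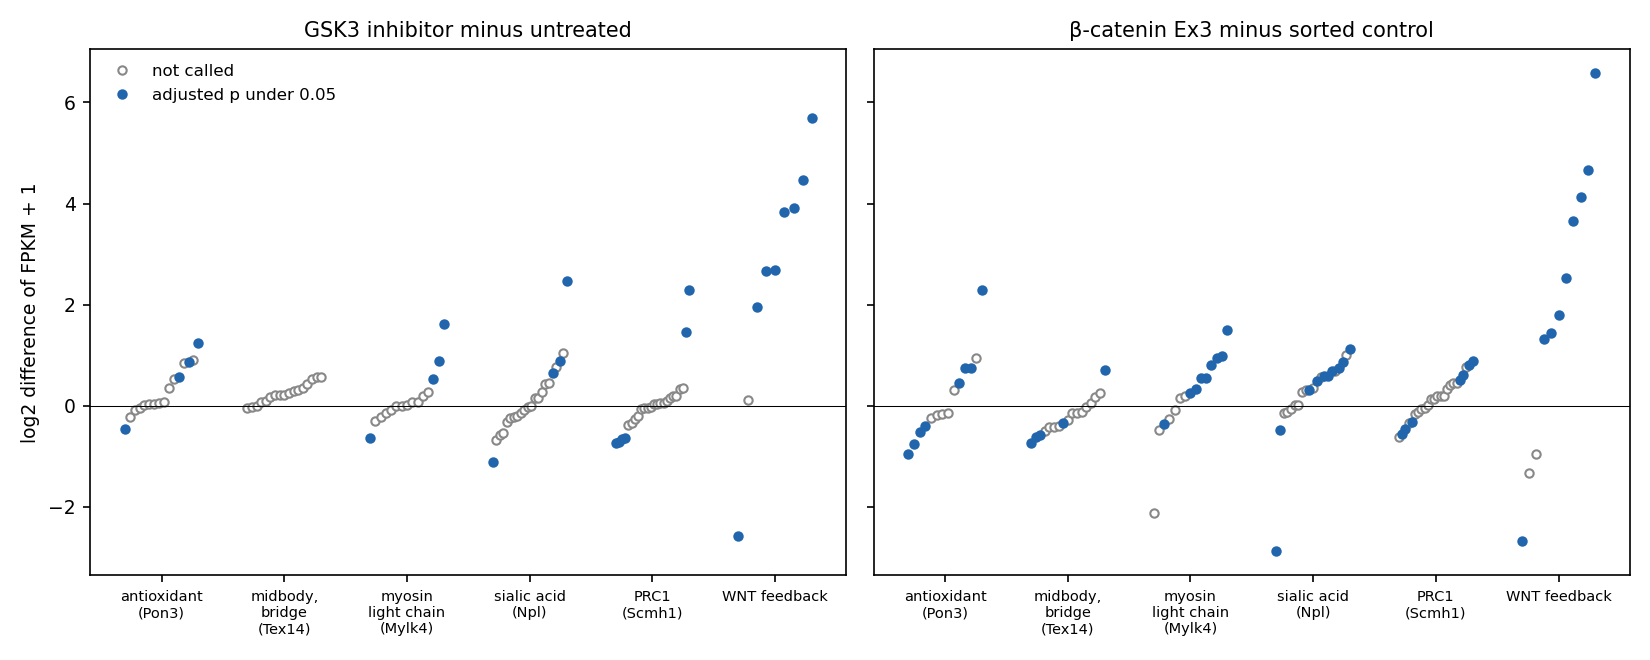
Log2 difference of FPKM + 1 for every tested gene of the 5 pathway lists and of the WNT feedback list, sorted within each list, for the drug (left) and the genotype (right). Filled points passed the test at an adjusted p under 0.05 (limma), and the WNT feedback points reach 5.69 with the drug and 6.58 with the genotype.

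WNT feedback genes, which β-catenin with TCF/LEF factors switches on in many tissues, serve as a read-out of GSK3 inhibition and of β-catenin. With the inhibitor 7 of 9 rose and with the genotype 8 of 11 (medians 2.68 and 1.79). Apcdd1 and Sp5 reached the filter of the drug fit through the inhibitor libraries alone. In the genotype fit Apcdd1, Sp5, Notum and Rnf43 reached it through the β-catenin libraries alone. Such genes could only be called higher, so these counts and medians are in part set by the filter. The receptor gene Lgr5 was the 1 that fell in each. Lgr5 reached the filter through the untreated libraries or the sorted controls alone. Without any single one of them it was not in the fit, so its call could not be checked there. Axin2, the scaffold of the β-catenin destruction complex, held 2.92, 2.48 and 2.95 FPKM untreated and 71.9, 46.6 and 53.0 FPKM with the inhibitor (3.92, limma adjusted p = 0.000177). It held 3.6, 6.98 and 4.77 FPKM in the sorted controls and 18.7, 54.0 and 36.7 FPKM in β-catenin libraries 244, 255 and 262 (2.53, limma adjusted p = 0.00760). Nkd1 rose by 5.69 (limma adjusted p = 6.38e-05) and Apcdd1 by 4.46 (limma adjusted p = 0.000102) with the drug, both encoding inhibitors of WNT signalling. With the genotype Apcdd1 rose by 4.67 (limma adjusted p = 0.00716), a call lost by voom (7.98, adjusted p = 0.0992), where 6 genes of the list rose, and the factor Tcf7 by 6.58 (limma adjusted p = 3.73e-05). Fewer genes of the list entered some fits without 1 library, and there 2 rose without β-catenin library 262 and 4 without library 244 or 255. In the difference of effects 2 of 11 were called higher, Tnfrsf19 (2.92, limma adjusted p = 0.0125) and Sp5 (1.24, limma adjusted p = 0.0492). The 3 called lower were Rnf43 (-4.20, limma adjusted p = 0.0209), Tcf7 (-2.74, 0.0241) and Notum (-1.22, 0.0343). By voom 1 was higher and 0 lower, and with single libraries left out 1 to 4 were higher and 0 to 3 lower. For Axin2 the difference of effects was 1.39 (limma adjusted p = 0.0928), and 1.73 without β-catenin library 255 (adjusted p = 0.0266).

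The genotype and drug groups were checked on their own genes. Ctnnb1, which keeps its other exons after loss of exon 3, so that a count per gene does not test the deletion, held 228 to 331 FPKM in the β-catenin group and 225 to 284 FPKM elsewhere. Gsk3a lay between 47.9 and 64.6 FPKM and Gsk3b between 25.1 and 34.1 FPKM in all libraries. The libraries held 31.9 M to 49.8 M fragments each.

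Markers of other cells moved with some groups, and bulk RNA cannot tell fewer cells of a type from less RNA per cell. The summed level of 12 B cell precursor markers was 5969 to 7983 FPKM in the untreated group, 1343 to 2212 FPKM with the inhibitor, 5934 to 6243 FPKM in the sorted controls and 584 to 1955 FPKM in the β-catenin group. At least 10 of the 12 were at 1 FPKM or more in each library, and their part in the drug and genotype values was not tested. Of 12 monocyte and macrophage markers, 11 were at 1 FPKM or more in both unsorted libraries numbered 249, with sums of 2602 FPKM untreated and 3464 FPKM with the inhibitor, where the other unsorted libraries held 40.0 to 156 FPKM. The sums were 17.4 to 31.2 FPKM in the sorted controls and 116 to 340 FPKM in the β-catenin group. Untreated library 249 was the one with the high level of Npl, and the part of these cells in the level of Npl was not tested.

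Neutrophil markers, 12 in number, stood out in the same libraries, with sums of 7250 FPKM untreated and 7133 FPKM with the inhibitor in number 249 against 41.7 to 452 FPKM in the other unsorted libraries. Other lists moved with the drug in every culture. The sum of 9 erythroid and megakaryocyte markers was higher with the inhibitor. It was 30.2 against 12.4 FPKM in culture 242, 964 against 94.7 FPKM in culture 249 and 52.6 against 12.96 FPKM in culture 251. Of these markers 2 to 4 were at 1 FPKM or more. The sum of 10 T cell markers was 213 to 230 FPKM with the inhibitor and 150 to 156 FPKM without. That of 8 mast cell, basophil and eosinophil markers was lower with the inhibitor, at 106 against 211 FPKM, 979 against 1674 FPKM and 155 against 358 FPKM. Stromal markers stayed under 1 FPKM in sum in all libraries.

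With the genotype NK and innate lymphoid markers summed to 763 to 3685 FPKM in the β-catenin group and 20.6 to 45.8 FPKM in the sorted controls, and T cell markers to 520 to 1075 and 74.2 to 98.4 FPKM. Neutrophil markers summed to 26.5 to 633 and 2.45 to 11.6 FPKM. Mast cell, basophil and eosinophil markers summed to 46.1 to 749 and 2.45 to 38.5 FPKM. Erythroid and megakaryocyte markers summed to 4.18 to 23.3 and 1.53 to 3.33 FPKM. For all these lists the part in the drug and genotype values was not tested.

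**Figure D5:**
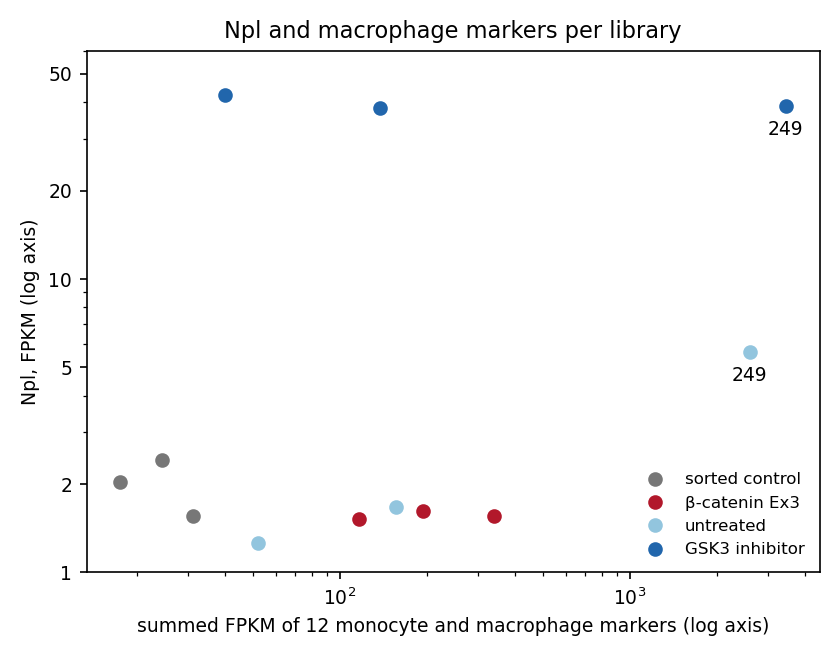
Level of Npl (FPKM, log axis) against the summed level of 12 monocyte and macrophage markers (FPKM, log axis), 1 point per library. The inhibitor libraries hold 38.4 to 42.5 FPKM of Npl at marker sums from 40.0 to 3464 FPKM, and the untreated library numbered 249 lies above the other untreated libraries.

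Among the tissues in which 3 of the genes are best known, germ cell and hepatocyte markers were at or near 0, while some muscle markers were not. Of 6 germ cell markers, for Tex14, 0 reached 1 FPKM in any library and their sum was at most 1.16 FPKM. Of 6 hepatocyte markers, for Pon3, 5 or 6 were listed at 0 in each library, and Alb reached at most 0.410 FPKM. Of 7 striated muscle markers, for Mylk4, the myosins Myh6 and Myh7 stayed at or under 0.259 FPKM and Ckm at or under 0.186 FPKM. Tnnt2 reached 12.8 FPKM in the untreated group and Tnni3 18.0 FPKM in the β-catenin group, while with the inhibitor they reached 6.23 and 3.97 FPKM. Actn2 held 1.76 to 4.33 FPKM in the β-catenin group and 0.425 to 0.622 FPKM in the sorted controls. For Ttn these were 0.181 to 1.04 and 0.0366 to 0.0779 FPKM. With the inhibitor Actn2 and Ttn reached 0.595 and 0.341 FPKM. In each library 1 to 3 of the 7 were at 1 FPKM or more.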

How the data were processed

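RNA of 12 mouse B cell precursor libraries was sequenced in bulk. The values are FPKM per gene, as computed and deposited by the authors. The submitters' processing notes name GRCm38 (mm10) as build and Cufflinks, HISAT2 and HTSeq as tools. Which tool did which step, and in what version, is not given in the sources used here. GENCODE M21, with 46488 of the 47069 gene IDs (98.8%), gave symbols and positions. The 5 members and the gene lists were chosen with earlier results of these data known.

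Each comparison was fitted with limma 3.58.1 in R 4.3.3 (eBayes with trend, 2-sided) on log2(FPKM + 1), in genes that reached 1 FPKM in 3 or more libraries of the fit. A Benjamini-Hochberg adjusted p under 0.05 over all genes tested counted as a call. Drug and genotype were each fitted in their own 6 libraries, and the difference of effects in all 12. FPKM values of a gene are whole multiples of the value of 1 fragment. Fragments were recovered from these steps for 25186 genes and failed for 0 (relative tolerance 1e-08), while 18793 genes were at 0 throughout and 3090 were above 0 in 1 library. They served voom and the depths. The fits were also run on simulated fragment numbers, with independent libraries, no pairing by number and 1 setting of the spread for all genes. The libraries here differ from that setting, so the simulation does not show how the fits behave on them.

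Deviations from the group mean over 12685 genes correlated between untreated and inhibitor libraries of number 242 (r = 0.609), 249 (0.770) and 251 (0.360), each above the threshold of 0.1, so the numbers were taken to pair cultures. Unequal numbers gave 0.383 (untreated 242 with inhibitor 251), 0.253 (251 with 242) and -0.657 to -0.386 for the pairs with 249. As 0.383 and 0.253 also pass the threshold, the check does not set 242 and 251 apart, and their pairing rests on the shared number. The main drug fit did not use the number, so its SE, p and counts are unpaired. A fit with the number as a block was an alternative. Other alternatives were 0.1 FPKM added, no filter, a filter of 5 FPKM, centring on the median, quantile normalization, voom and all 12 libraries in each fit. Single libraries, or both unsorted libraries numbered 249, were also left out. Genes named beside the 5 are their paralogs, nearest tested neighbours, closest profiles, the next 5 in the difference of effects and, per list, up to 3 called genes of largest difference for the drug and 2 for the genotype. Further genes named to complete a count, and Cep55, were chosen after their values were seen. Other steps used Python 3.11.15, numpy 2.4.6, pandas 2.3.3 and matplotlib 3.10.9. Some genes under the naming rule are not reported here.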

Additional observations from a re-analysis of the deposited data

How the results depend on the processing

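For the 5 genes all differences that were fitted kept their direction in the alternatives run, except that of Scmh1 in the genotype comparison. It was 0.18 and ranged from -0.13, without β-catenin library 255, to 0.56, without library 244. The genes were chosen for the contrast of drug and genotype, so a kept direction is no independent check. Tex14 and Mylk4 were not in the drug fits that left out an inhibitor library, and could not be checked there. The genotype difference of Tex14 was fitted in 10 settings, the main one included, against 14 for Pon3. That of Mylk4 was not followed. The 2292 genes called for the drug were 3816 with the culture number as a replicate block and 1023 to 2200 with single libraries left out. The 4656 called for the genotype ranged from 1535 to 5002 with single libraries left out. The 1264 called for the difference of effects were 808 with no filter, 588 by voom and 479 to 1997 with single libraries left out. The cause was not tested. Centring on the median shifted every gene by -0.11 in the genotype comparison and by 0.13 in the difference of effects. It moved the share of calls that were higher from 51.3% to 37% (1932 against 3291, main 2387 against 2269) for the genotype and from 33.5% to 48.1% (541 against 583, main 423 against 841) for the difference, where quantile normalization gave 40.8% and 44.7%. Beside the changes given in the report, the block changed the call of Srxn1 for the drug (adjusted p = 0.0198) and St6galnac4 (0.0321) and, for the difference of effects, of Phc3 (0.0475), Pcgf5 and Cep55, all of which passed with it. With no filter the calls of Gclc, Gne, Sept4 and St6gal1 for the drug, of Dhx9, Rad51c and Ppp1cb for the genotype and of Cmah for the difference were lost (adjusted p of 0.0503 to 0.0888). Srxn1 for the genotype was lost by voom (0.0629) and with all 12 libraries in the fit (0.0872), and Cmah for the difference by voom (0.0595). Low fragment numbers limit the untreated levels of Tex14 and Mylk4.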
